A study of Mus musculus with 34 samples.

Results

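The matrix metalloproteinases (Mmp), the ADAM and ADAMTS proteinases, the proprotein convertases (Pcsk genes and Furin) and the inhibitors Timp2, Timp3, Timp4 and Reck were described in mouse neural stem cells transduced with STAT3C, CEBPB or both. Members were taken by symbol: Mmp, Adam, Adamts or Pcsk followed by digits only, or 1 of the 5 named genes. Of 19057 genes with a probe, 72 met this rule. A gene was tested in a cell type where its probe was detected (detection p below 0.05) on at least 4 arrays of that cell type, which left 32 members of 9699 genes in the C17.2 line and 40 members of 10858 genes in primary neural stem cells (NSC). No measured change entered the choice, and 9 related symbols that end in a letter, such as Mmp1a and Adam6a, fell outside the rule.

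Metalloproteinases of the Mmp family cut collagens, other matrix proteins and cell surface proteins, and most are made as inactive precursors. ADAM proteinases sit in the plasma membrane and release the outer parts of growth factors, cytokine receptors and adhesion proteins, whereas ADAMTS proteinases are secreted and cut proteoglycans such as brevican or trim procollagens. Furin and its relatives activate precursors of many Mmp, ADAM and growth factor proteins by cutting at basic residues. Timp proteins and the membrane-anchored Reck hold these enzymes in check, and the balance of the families shapes how neural cells migrate through brain tissue.

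Total RNA was hybridised to 34 Illumina MouseWG-6 v2 arrays. C17.2 is an immortalised mouse neural stem cell line. The NSC were primary cells taken from the telencephalon of mouse embryos at E13.5. The study asked what these factors, tied to mesenchymal transformation of brain tumours, change in neural stem cells. Both cell types received retroviruses for STAT3C (a constitutively active form of the transcription factor STAT3) with CEBPB, for STAT3C alone, for CEBPB alone, or the empty pBabe vector as control. For the doubly transduced NSC the labels write STAT3 in 1 field and STAT3C in others, and STAT3C is used here. C17.2 had 4 arrays in each group, and NSC had 5 STAT3C+CEBPB, 4 STAT3C, 4 CEBPB and 5 control arrays. Whether replicate arrays stand for separate cultures is not stated, so p-values measure the spread between these arrays, whose number limits the precision.

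Arrays detected 33.8% to 35.9% of probes in C17.2 and 36.3% to 41.7% in NSC. Nes, Vim and Sox2, markers of neural stem cells, were detected on all 34 arrays, Prom1 on 1 array of each cell type and Pax6 on 0 arrays of either. Fabp7, Olig1 and Olig2 were detected on all 18 NSC arrays and on 0 of 16 C17.2 arrays. Of 8 pericyte and fibroblast markers, Col1a1, Pdgfrb, Col1a2 and Foxc1 were detected on 16, 15, 14 and 14 C17.2 arrays. On NSC arrays these were detected on 0, 0, 1 and 18. Rgs5, Kcnj8, Dcn and Lum were detected on at most 2 arrays of either. Of 8 microglia and macrophage markers, C1qa, C1qb, Cx3cr1, Ptprc and Tyrobp were detected on 0 arrays, whereas Aif1 was detected on 16 of 18 NSC and 5 of 16 C17.2 arrays, Csf1r on 14 and 1, and Itgam on 4 and 0, at median signals of at most 17.7. The arrays lay on 6 slides. For C17.2, all 4 controls filled slide 1 by themselves, slide 2 had the 4 STAT3C and 2 of the CEBPB arrays, and slide 3 had the other 2 CEBPB and the 4 STAT3C+CEBPB arrays, so the slide and the vector cannot be told apart wherever C17.2 controls are compared. In NSC, slide 4 held 3 STAT3C and 3 control arrays, slide 5 held 3 STAT3C+CEBPB and 3 CEBPB arrays, and slide 6 held 2 STAT3C+CEBPB, 1 STAT3C, 1 CEBPB and 2 control arrays, and the fit held slide as a term. Replicate 4 of each NSC group lacked Xist RNA and carried the Y-linked Eif2s3y, so results that change without these 4 arrays are given both ways. Without them slide 6 keeps 1 control and 1 STAT3C+CEBPB array. That pair alone then ties the slide 4 groups (control, STAT3C) to the slide 5 groups (CEBPB, STAT3C+CEBPB). The mouse genes Stat3 and Cebpb were themselves not called in any comparison of vectors, and their probes were not matched to the vectors.

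The 4 members that passed a test between NSC groups were Pcsk6, Timp2, Adamts14 and Timp4. The 250 bases before the start of each are shown for their contrast in base composition, from RefSeq (GRCm38.p6), 5′ to 3′ on the strand of the gene, with each CpG dinucleotide in capitals.
Pcsk6, chr7:65861886-65862135 (+): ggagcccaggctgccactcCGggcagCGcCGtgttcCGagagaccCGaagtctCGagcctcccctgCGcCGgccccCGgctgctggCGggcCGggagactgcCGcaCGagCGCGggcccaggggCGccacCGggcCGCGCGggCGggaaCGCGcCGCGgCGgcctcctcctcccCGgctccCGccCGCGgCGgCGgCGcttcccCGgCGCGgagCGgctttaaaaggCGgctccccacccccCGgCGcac
Adamts14, chr10:61273420-61273669 (-): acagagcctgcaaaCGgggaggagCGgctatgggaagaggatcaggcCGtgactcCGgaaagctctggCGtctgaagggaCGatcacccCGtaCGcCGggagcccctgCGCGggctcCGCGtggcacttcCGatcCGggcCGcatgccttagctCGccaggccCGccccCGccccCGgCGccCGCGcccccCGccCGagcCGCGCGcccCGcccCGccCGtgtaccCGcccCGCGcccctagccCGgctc
Timp2, chr11:118355412-118355661 (-): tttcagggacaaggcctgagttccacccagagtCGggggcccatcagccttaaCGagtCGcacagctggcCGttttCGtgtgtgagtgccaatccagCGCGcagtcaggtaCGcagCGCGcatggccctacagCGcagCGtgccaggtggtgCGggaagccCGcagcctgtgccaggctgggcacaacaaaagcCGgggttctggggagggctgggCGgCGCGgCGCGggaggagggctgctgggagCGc
Timp4, chr6:115252206-115252455 (-): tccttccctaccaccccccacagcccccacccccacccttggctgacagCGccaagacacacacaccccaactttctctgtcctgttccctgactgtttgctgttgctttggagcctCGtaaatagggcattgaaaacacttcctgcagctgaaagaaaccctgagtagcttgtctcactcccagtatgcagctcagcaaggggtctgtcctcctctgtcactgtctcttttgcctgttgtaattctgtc
The Pcsk6 window held 40 CpG at 81.2% G+C, the Adamts14 window 35 at 76.4%, the Timp2 window 21 at 68%, and the Timp4 window 2 at 53.6%. Over 32851 RefSeq windows of this length the median was 6 CpG and 52.4% G+C, 16.3% had at least as many CpG as Timp2, and 29% had no more than Timp4. The 28 windows found for 26 tested members had medians of 17.5 CpG and 64.4% G+C. Each window was searched on both strands for TTCNNNGAA, the STAT core, and TTGNNCAA, the C/EBP core, and a window may hold both. Neither lay in the 4 windows printed. Over all windows 7.02% held the first and 5.65% the second. Among tested members, the first lay in the window of Mmp23 and the second in that of Adam8.

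The families differed in how many members were detected. Of 19 Mmp genes with a probe, 11 were tested in C17.2 and 11 in NSC. Of 17 Adamts genes, 8 and 10 were tested, and of 26 Adam genes 6 and 11. Of the 6 convertases with a probe, Furin, Pcsk4, Pcsk6 and Pcsk7 were tested in both cell types. Timp2, Timp3 and Reck were tested in both, and Timp4 in NSC. In all, 29 members were tested in both cell types, 3 in C17.2 alone (Mmp10, Mmp11 and Adamts15), 11 in NSC alone, and 29 in neither. At the threshold, Adam5 and Mmp10 entered in C17.2 with 4 arrays detected while Adam4 and Adam32 stayed out with 3. In NSC, Mmp3 entered with 4, and Adam11, Adam29 and Adamts8 stayed out with 3.

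With both factors in NSC, 1 of 40 members passed the test against control. This was Pcsk6, which encodes the convertase PACE4, known to activate precursors of TGF-beta family growth factors. The array levels (normalised log2 signal) of Pcsk6 were 8.16, 8.07, 8.12, 8.94 and 8.86 in STAT3C+CEBPB NSC, 7.55, 7.45, 7.61 and 7.46 in STAT3C NSC, 6.79, 6.72, 6.70 and 8.24 in CEBPB NSC, and 6.70, 6.84, 6.67, 7.16 and 7.48 in control NSC. All 5 doubly transduced arrays lay above all STAT3C and all control arrays, and 1 CEBPB array, replicate 4, lay among the doubly transduced ones. Non-overlapping groups were found for 2.78% of all genes against control and 5.7% against STAT3C. Pcsk6 averaged 8.43 ± 0.43 with both factors (SD, n = 5) and 6.97 ± 0.35 in control (SD, n = 5).

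**Figure D1:**
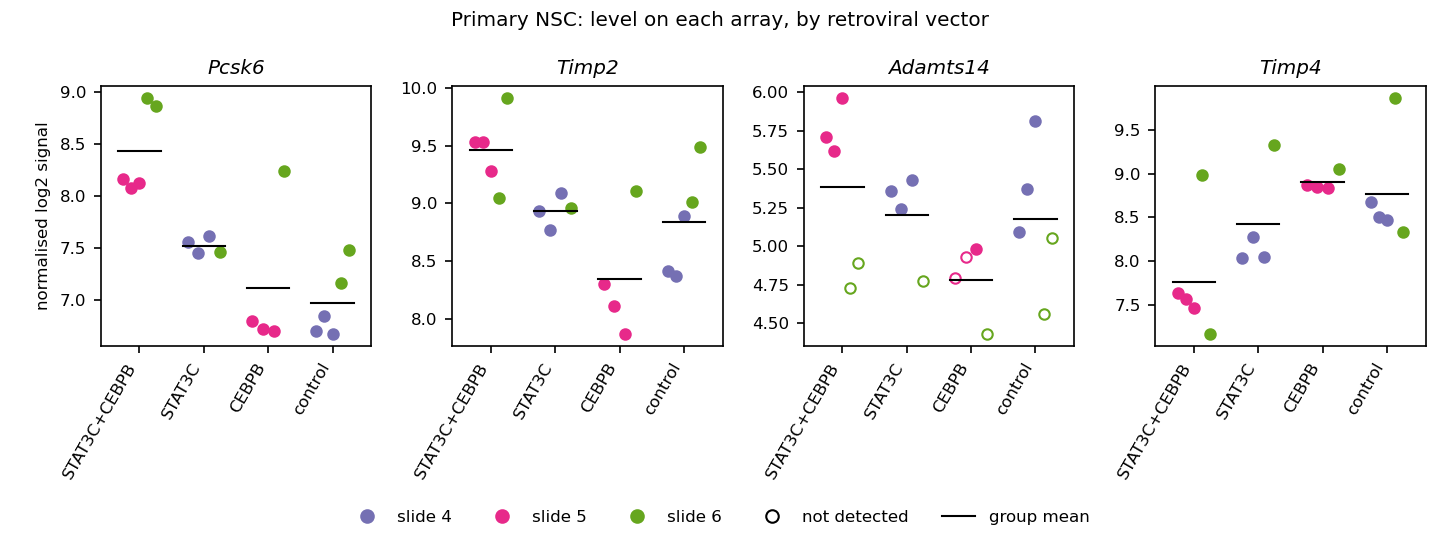
Normalised log2 signal of Pcsk6, Timp2, Adamts14 and Timp4 on each of 18 NSC arrays, by vector. Colours give the slide, open points arrays that did not detect the gene and bars group means, and the 5 STAT3C+CEBPB arrays of Pcsk6 all lie at 8.07 or above.

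The log2 change of Pcsk6 with both factors against control was 1.89 (SE 0.18, adjusted p = 5.09e-05 by limma with Benjamini-Hochberg adjustment over 10858 genes), a 3.72-fold rise. Fewer cells that make a transcript and less of it per cell cannot be told apart in these bulk samples. The change exceeds the difference of the means because it is taken with slide as a term. Within slide 6 alone, where both groups had 2 arrays, the difference was 1.58. Of all genes tested, 2.84% passed in this comparison, 1.51% upward, so the share of members called, 2.5%, was near the background. The call held in each alternative processing, with changes up to 2.04, and with each array left out. The smallest change, 1, came from the deposited normalised values.

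Pcsk6 was also higher with both factors than with either alone. Against STAT3C the change was 1.30 (SE 0.20, adjusted p = 0.00739 by limma), and Pcsk6 was the 1 member of 40 past the threshold, where 0.341% of all genes passed (0.166% higher). This call was lost without the slide term (change 0.92, adjusted p = 0.218), without STAT3C replicate 4, the only STAT3C array on slide 6 (0.95, adjusted p = 0.185), and without the 4 arrays lacking Xist (0.58, adjusted p = 0.176). The last value turns on the remaining slide 6 pair of 1 control and 1 STAT3C+CEBPB array. Against CEBPB the change was 1.16 (SE 0.14, adjusted p = 0.00042 by limma), with 1.38 within slide 5 and 0.66 within slide 6. The excess of Pcsk6 over the sum of the single changes was 0.57 (SE 0.20, adjusted p = 0.223), and 0.59 (adjusted p = 0.0205) without the 4 arrays lacking Xist.

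The comparison of both factors with CEBPB alone, which asks what STAT3C adds to CEBPB, held the most members past the test between vectors in NSC: 4 of 40, with 3 higher and 1 lower, which is 10% of them, against 6.47% of all genes (3.22% higher and 3.24% lower). Besides Pcsk6, these were the inhibitor Timp2, which also takes part in activating pro-Mmp2 on the cell surface, Adamts14, a procollagen N-proteinase, and the inhibitor Timp4. The median change over the 40 members was 0.07, and over all genes -0.01.

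Timp2 had levels of 9.53, 9.53, 9.28, 9.05 and 9.91 in STAT3C+CEBPB NSC, 8.93, 8.77, 9.09 and 8.96 in STAT3C NSC, 8.30, 8.11, 7.87 and 9.11 in CEBPB NSC, and 8.41, 8.37, 8.89, 9.01 and 9.49 in control NSC. The 3 CEBPB arrays of slide 5 were the lowest of all 18, and CEBPB replicate 4 lay just inside the range of the doubly transduced arrays. With both factors Timp2 was higher than with CEBPB by 1.05 (SE 0.22, adjusted p = 0.0105 by limma), by 1.35 within slide 5 and by 0.37 within slide 6. The only CEBPB array on slide 6 was replicate 4 (9.11), which lacked Xist. STAT3C+CEBPB replicate 4, which also lacked Xist, lay slightly below it at 9.05. The slide 6 difference therefore came from STAT3C+CEBPB replicate 5 (9.91), an array with Xist. Against control the change was 0.61, which did not pass, and it did (1.02, adjusted p = 0.0293) without STAT3C+CEBPB replicate 4.

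Adamts14 had levels of 5.71, 5.62, 5.96, 4.73 and 4.89 in STAT3C+CEBPB NSC, 5.36, 5.24, 5.43 and 4.77 in STAT3C NSC, 4.79, 4.93, 4.98 and 4.43 in CEBPB NSC, and 5.09, 5.37, 5.81, 4.56 and 5.05 in control NSC. It stood near the limit of detection: 3 of 5 doubly transduced arrays, 3 of 4 STAT3C arrays, 1 of 4 CEBPB arrays and 3 of 5 controls detected it, and no array of slide 6 did. The change against CEBPB was 0.72 (SE 0.15, adjusted p = 0.0106 by limma), with 0.87 within slide 5 and 0.38 within slide 6. Without the slide term it was 0.60 (adjusted p = 0.326).

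Timp4, an inhibitor with a narrow tissue range that includes brain, went the other way. Its levels were 7.64, 7.57, 7.46, 8.98 and 7.17 in STAT3C+CEBPB NSC, 8.03, 8.28, 8.05 and 9.33 in STAT3C NSC, 8.87, 8.85, 8.84 and 9.05 in CEBPB NSC, and 8.68, 8.50, 8.47, 9.86 and 8.33 in control NSC. Replicate 4 was the highest array of each group, and without it all doubly transduced arrays lay below all other NSC arrays. Timp4 fell by 1.20 against CEBPB (SE 0.31, adjusted p = 0.0287 by limma), with -1.30 within slide 5 and -0.98 within slide 6. The only CEBPB array on slide 6 was replicate 4 (9.05), which lacked Xist. STAT3C+CEBPB replicate 4, which also lacked Xist, lay close to it at 8.98. The slide 6 difference therefore came from STAT3C+CEBPB replicate 5 (7.17), an array with Xist.

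The Timp4 call against CEBPB did not hold without the slide term (change -1.14, adjusted p = 0.144), with no detection filter (-1.20, adjusted p = 0.053), or with any of the 6 slide 5 arrays left out (adjusted p of 0.0711 to 0.0852). Against control its change was -1.25 (SE 0.40, adjusted p = 0.104). It passed without STAT3C+CEBPB replicate 4 (-1.86, adjusted p = 0.00622) and without control replicate 5 (-1.82, adjusted p = 0.0107). Without the 4 arrays lacking Xist it also passed (-1.16, SE 0.18, adjusted p = 0.00486). That value is 1 STAT3C+CEBPB array (7.17) against 1 control (8.33) on slide 6, and its SE comes from the other arrays. With the 4 arrays lacking Xist kept and given a term of their own beside slide, the change was -1.25 (SE 0.20, adjusted p = 0.001). Against STAT3C, Timp4 passed without STAT3C+CEBPB replicate 4 (-1.64, adjusted p = 0.0388).

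With STAT3C alone in NSC, 0 of 40 members passed against control by limma, as did 0 of 10858 genes (0%), and 2 members had an unadjusted p below 0.05, as did 5.14% of all genes. Pcsk6 differed by 0.59 (SE 0.14, unadjusted p = 0.000705, adjusted p = 0.728). On slide 4 the 3 STAT3C arrays lay above the 3 controls by 0.79 without overlap, and on slide 6 the single STAT3C array lay between the 2 controls. Without the 4 arrays lacking Xist the change was 0.79 (SE 0.09, adjusted p = 0.0069). Mmp16, a membrane-type metalloproteinase, differed by 0.40 (SE 0.16, adjusted p = 0.854).

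With CEBPB alone in NSC, 0 of 40 members passed by limma, against 0.0276% of all genes, and 6 had an unadjusted p below 0.05, as did 8.51% of all genes. For Pcsk6 the change was 0.74 (SE 0.20, adjusted p = 0.215). CEBPB replicate 4 lay at 8.24 and the other CEBPB arrays at 6.79 or below. With 1 array left out at a time the change ran from 0.35 to 0.93, and without the 4 arrays lacking Xist it was 0.00. In that last fit CEBPB and control arrays shared no slide. Only 1 control and 1 STAT3C+CEBPB array on slide 6 then tied them. Mmp16 had 5.97, 5.97, 5.38, 5.13 and 5.13 in STAT3C+CEBPB NSC, 6.22, 6.15, 6.23 and 5.18 in STAT3C NSC, 5.94, 6.09, 6.34 and 5.44 in CEBPB NSC, and 5.90, 6.22, 5.35, 4.91 and 4.57 in control NSC. The groups overlapped, and the slide 6 arrays were the lowest of each. With CEBPB its change was 0.70 (SE 0.23, adjusted p = 0.339), and a second probe of Mmp16 gave 0.19 (adjusted p = 0.929). Pcsk4, a convertase best known from germ cells, had 5.18, 5.22, 4.99, 6.16 and 5.85 in STAT3C+CEBPB NSC, 5.14, 5.40, 4.79 and 6.35 in STAT3C NSC, 5.27, 5.97, 5.51 and 6.33 in CEBPB NSC, and 5.07, 5.15, 5.49, 6.33 and 6.79 in control NSC. Its highest values were on slide 6 in each group, and the change with both factors against control was -0.56 (SE 0.21, adjusted p = 0.165).

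Some members separated NSC arrays within groups rather than between them. Mmp14 lay at 6.30 to 6.44 on the 4 replicate 4 arrays, those without Xist, and at 7.42 to 9.11 on the other 14. Adamts12 lay at 9.45 to 9.65 on the same 4 arrays and at 7.21 to 8.29 on the others, and Mmp2 was at 7 to 7.51 on the 6 slide 6 arrays and at 4.98 to 6.77 elsewhere. None of these ranges overlapped, and none of the 3 genes passed between vectors in NSC. In all, 5 of 40 members (12.5%) separated the 4 arrays from the rest, against 12.6% of all genes, and 4 of 40 (10%) separated slide 6, against 10.8% of all genes.

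By role, the counts in NSC were as follows, beside 2.84%, 0.341% and 6.47% of all genes called with both factors against control, STAT3C and CEBPB. Of 6 tested proteolytic ADAM genes, including the main sheddases Adam10 and Adam17, 0 passed against any of the other 3 groups with both factors. The same held for 6 secreted and 4 membrane-type Mmp genes. Of the 4 convertases tested 1 rose in each of these 3 comparisons, Pcsk6, while Furin, Pcsk4 and Pcsk7 did not pass. Of the 4 inhibitors tested, Timp2 rose and Timp4 fell with both factors against CEBPB, and Timp3 and Reck did not pass. Non-additivity, the change with both factors minus the sum of the single changes, passed for 0 of 40 members by limma (7 at an unadjusted p below 0.05, as were 14.2% of all genes), against 0.0368% of all genes. Without the 4 arrays lacking Xist 6 members passed, with 697 of 10858 genes. Among them were Pcsk6, Timp4 (-0.87, adjusted p = 0.00527), Timp2 (0.98, adjusted p = 0.0223) and Adamts14 (0.95, adjusted p = 0.0275). With a term for those 4 arrays beside slide 0 passed, with 189 genes.

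**Figure D2:**
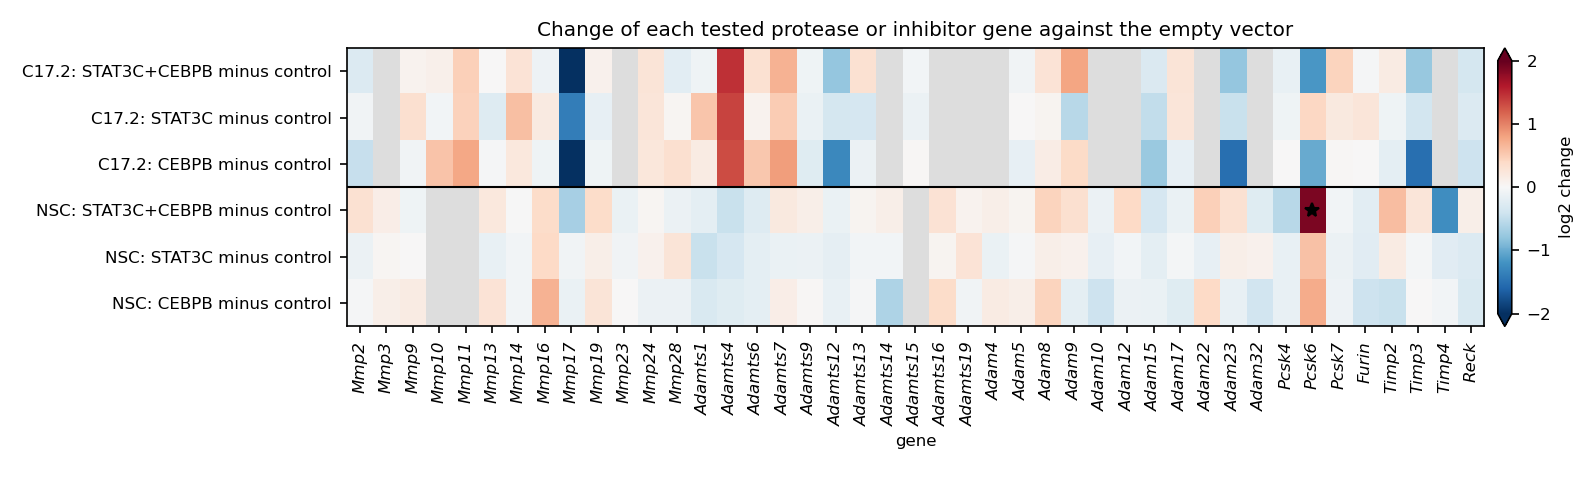
Log2 change against control of each of 43 tested members (columns) with both factors, STAT3C and CEBPB in C17.2 and NSC (rows). Grey cells were not tested, colours stop at 2 in each direction and the star marks the 1 change past an adjusted p of 0.05, Pcsk6 at 1.89 with both factors in NSC.

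In C17.2 no member passed against control by limma. With both factors the count was 0 of 32 (0.577% of all genes called), and 4 members had an unadjusted p below 0.05, as did 17.8% of all genes. With STAT3C it was 0 (0.0103% called), and 2 members had an unadjusted p below 0.05, against 12.8% of all genes. With CEBPB it was 0 (1.62% called), and 6 members had an unadjusted p below 0.05, against 23% of all genes. The 1 member that passed between transduced groups was Adam9, a widely expressed transmembrane sheddase, with both factors against STAT3C, where 0.186% of all genes passed (0.0722% higher). Against CEBPB, 0 of 32 members passed with both factors (4 at an unadjusted p below 0.05, against 4% of all genes), as did 0% of all genes by limma. The count for non-additivity was also 0 (3 at an unadjusted p below 0.05, against 10.8% of all genes), again with 0% of all genes called.

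Adam9 had levels of 8.83, 9.24, 8.86 and 9.14 in STAT3C+CEBPB C17.2 cells, 7.80, 7.62, 7.88 and 7.39 in STAT3C cells, 8.45, 8.62, 9.13 and 8.23 in CEBPB cells, and 8.62, 7.87, 8.18 and 8.23 in control cells. All 4 doubly transduced arrays lay above all STAT3C and all control arrays, and 3 of the 4 STAT3C arrays lay below all controls. Groups did not overlap for 8.57% of all genes between both factors and control and for 5.3% between both factors and STAT3C. The change against STAT3C was 1.34 (SE 0.20, adjusted p = 0.0112 by limma), a 2.54-fold rise. Against control it was 0.79 with both factors (SE 0.20, adjusted p = 0.0883), -0.55 with STAT3C (SE 0.20, adjusted p = 0.302) and 0.38 with CEBPB (SE 0.20, adjusted p = 0.265). STAT3C and doubly transduced arrays lay on different slides. With slide as a block over the transduced groups, bridged by the CEBPB arrays, the change was 1.20 (SE 0.35, adjusted p = 0.586), and without STAT3C replicate 2 the adjusted p was 0.0597. In NSC the same comparison gave 0.23 (SE 0.28, adjusted p = 0.82), and both factors against CEBPB gave 0.51 (SE 0.20, adjusted p = 0.139).

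Adamts13, which encodes the proteinase that trims von Willebrand factor, had levels of 5.81, 5.94, 5.31 and 5.41 in STAT3C+CEBPB C17.2 cells, 4.82, 4.82, 5.05 and 5.24 in STAT3C cells, 5.21, 5.15, 5.13 and 5.34 in CEBPB cells, and 5.34, 5.33, 4.97 and 5.63 in control cells. The doubly transduced arrays lay above the STAT3C arrays without overlap, by 0.63 (SE 0.17, adjusted p = 0.177). Adamts4, an aggrecanase that also cuts brevican, had 7.87, 9.62, 8.71 and 10.64 in STAT3C+CEBPB cells, 8.18, 9.78, 9.74 and 8.69 in STAT3C cells, 8.69, 8.84, 10.59 and 8.10 in CEBPB cells, and 8.42, 8.17, 6.90 and 7.50 in control cells. In each transduced group 3 of 4 arrays lay above all controls, and the changes were 1.46 with both (adjusted p = 0.236), 1.35 with STAT3C (adjusted p = 0.373) and 1.31 with CEBPB (adjusted p = 0.214), each with an SE of 0.61.

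**Figure D3:**
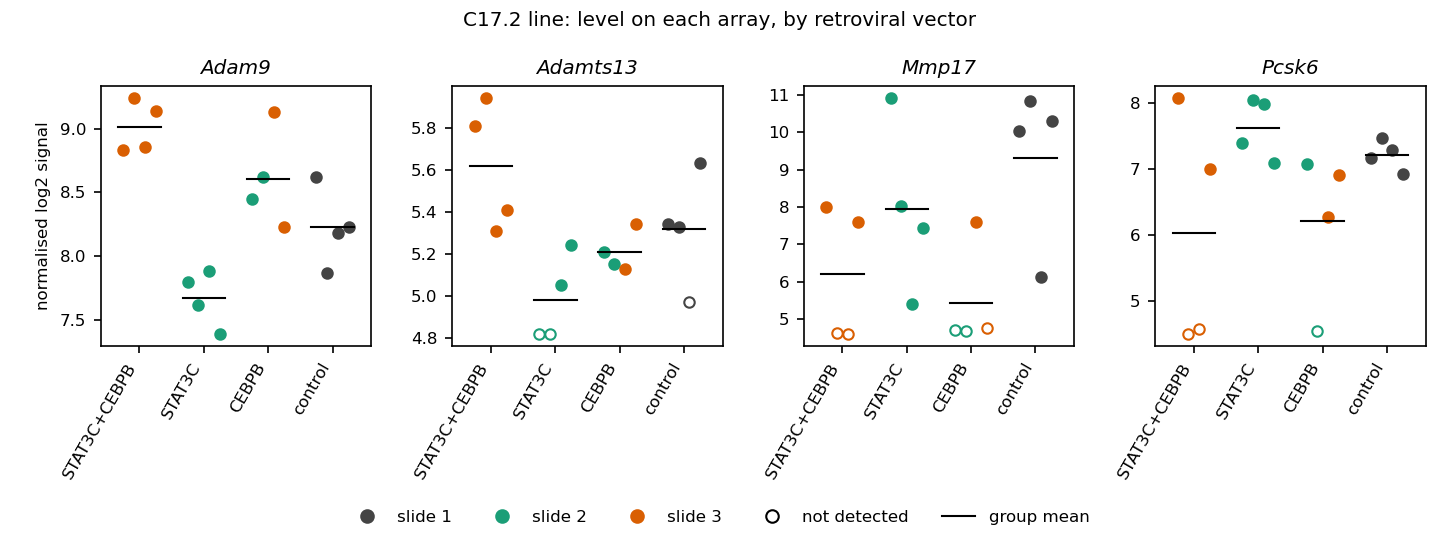
Normalised log2 signal of Adam9, Adamts13, Mmp17 and Pcsk6 on each of 16 C17.2 arrays, by vector. Colours give the slide, open points arrays that did not detect the gene and bars group means. Adam9 separates STAT3C+CEBPB (8.83 or above) from STAT3C (7.88 or below), and Mmp17 spreads from 4.61 to 10.91.

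A wide spread within groups was found for Mmp17, a glycolipid-anchored membrane-type metalloproteinase. It had 8.01, 4.64, 4.61 and 7.60 in STAT3C+CEBPB C17.2 cells, 10.91, 8.02, 5.41 and 7.45 in STAT3C cells, 4.70, 4.68, 7.60 and 4.76 in CEBPB cells, and 10.03, 10.83, 6.14 and 10.29 in control cells. Arrays of each transduced group lay both high and low, and 5 arrays, all with CEBPB or both factors, did not detect it. The change with CEBPB against control was -3.89 (SE 1.23, adjusted p = 0.092), and with both factors -3.11 (SE 1.23, adjusted p = 0.219). Without CEBPB replicate 3 the CEBPB value was -4.61 (adjusted p = 0.0418), and without control replicate 3 it was -4.95 (adjusted p = 0.0475). In 14 of 16 fits with 1 array left out it did not pass (adjusted p up to 0.222 by limma). It passed with array weights (-4.62) and in none of the other alternatives (5 of 6), where adjusted p reached 0.81. Over the alternatives the change ran from -4.62 to -1.78.

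Mmp17 moved with Sox10, a transcription factor of the oligodendrocyte and neural crest lineages. On the 10 C17.2 arrays that detected Sox10, Mmp17 was detected on 10 and lay between 6.14 and 10.91. On the 6 that did not, it was detected on 1 and lay between 4.61 and 5.41. The 2 ranges did not overlap, and within the control group the 1 array with low Mmp17, replicate 3, was also the one with the lowest Sox10, at 8.35 against 12.60 or above. Of the other 4 oligodendrocyte markers, Olig1 and Olig2 were detected on 0 C17.2 arrays, Mbp on 5 and Pdgfra on 7, so the summed signal of the 5 is carried by Sox10. That sum ran from -2.38 to 4720 with both factors, 90.7 to 6280 with STAT3C, -3.64 to 4680 with CEBPB and 289 to 8920 in control. The same 6 arrays lay at 34.8 to 43 on the first principal component of the C17.2 arrays, and the 10 others at 16.6 or below. That component held 50.2% of the variance, so the split is not particular to Mmp17 and Sox10. The share of all genes that separate these arrays was not counted. The part of this split in the differences between vectors was not tested.

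**Figure D4:**
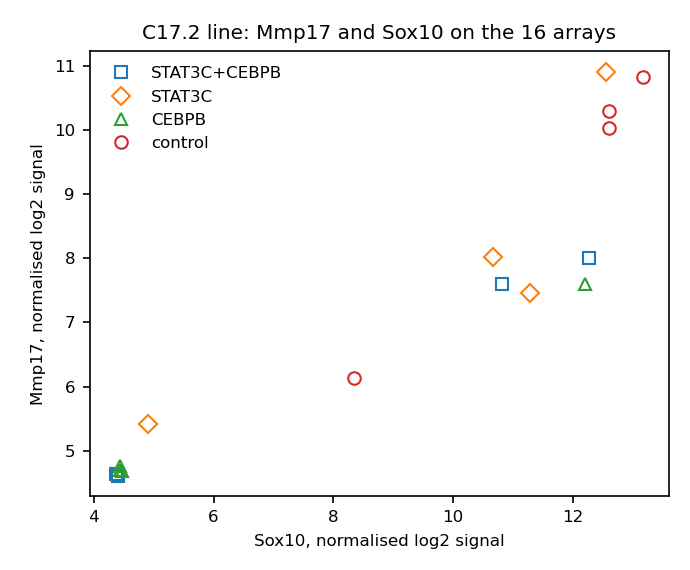
Mmp17 against Sox10, both as normalised log2 signal, on the 16 C17.2 arrays, with a symbol for each vector. The 6 arrays without detected Sox10 have Mmp17 at 5.41 or below, and the 10 others at 6.14 or above.

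Pcsk6 also divided the C17.2 arrays. It had 8.07, 4.50, 4.58 and 6.99 in STAT3C+CEBPB cells, 7.39, 8.04, 7.98 and 7.09 in STAT3C cells, 7.08, 4.55, 6.27 and 6.91 in CEBPB cells, and 7.16, 7.47, 7.29 and 6.92 in control cells. It was undetected on 2 doubly transduced arrays and 1 CEBPB array, which also lacked Mmp17, and stood at 6.27 or above on the other 13. The change with both factors against control was -1.17 (SE 0.69, adjusted p = 0.385). Adam23, a catalytically inactive ADAM of neurons, ran from 4.50 to 7.08 with both factors, 4.43 to 7.68 with STAT3C, 4.37 to 6.16 with CEBPB and 4.50 to 8.30 in control, and did not pass.

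The other members named in C17.2 gave smaller or less even values. Adamts12 had 7.63, 6.98, 6.74 and 8.88 in STAT3C+CEBPB cells, 9.02, 7.72, 7.57 and 7.66 in STAT3C cells, 6.25, 6.64, 8.39 and 6.91 in CEBPB cells, and 8.95, 8.58, 7.69 and 8.14 in control cells. Its change with CEBPB was -1.29 (SE 0.51, adjusted p = 0.15), and -1.74 (adjusted p = 0.0404) without CEBPB replicate 3, the array that also kept Mmp17. In 15 of 16 fits with 1 array left out it did not pass (adjusted p up to 0.343 by limma). It passed with array weights (-1.73) and in none of the other alternatives (5 of 6), where adjusted p reached 0.945. Over the alternatives the change ran from -1.73 to -0.25.

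Mmp10, a stromelysin, stood near background in C17.2, with 4.26, 5.49, 4.79 and 4.75 in STAT3C+CEBPB cells, 4.48, 4.54, 4.80 and 4.82 in STAT3C cells, 5.63, 5.53, 4.65 and 5.37 in CEBPB cells, and 4.71, 4.97, 4.54 and 4.67 in control cells. It was detected on 3 of 4 CEBPB arrays, 1 of 4 doubly transduced arrays and 0 STAT3C or control arrays, and the 4 arrays that detected it were among those without detected Sox10. The filter asked for 4 arrays, so Mmp10 was tested only through the arrays where it was high. Its change with CEBPB draws on those same arrays. The change with CEBPB was 0.57 (SE 0.24, adjusted p = 0.175). It was -0.08 (adjusted p = 0.948) with a covariate, the mean log2 level of chromosome 10 genes, each centred on its mean over the 16 arrays. The covariate ran from -0.0556 to 0.266 over the CEBPB arrays and from -0.209 to -0.103 over the controls. These ranges do not overlap, so it can take up the vector difference itself, and genes called for CEBPB against control went from 157 to 0. Mmp28, also called epilysin, had 4.54, 4.94, 4.52 and 4.73 in STAT3C+CEBPB cells, 4.85, 4.86, 4.83 and 5.18 in STAT3C cells, 5.40, 5.33, 4.80 and 5.29 in CEBPB cells, and 5.05, 5.20, 4.69 and 4.62 in control cells. It was detected on 0 of 4 doubly transduced arrays, 1 of 4 STAT3C, 3 of 4 CEBPB and 2 of 4 control arrays, and with both factors differed from CEBPB by -0.52 (SE 0.17, adjusted p = 0.993).

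The vector changes were set against each other between the cell types in 1 fit of all 34 arrays and 43 members. By limma 0 members passed for STAT3C+CEBPB (1.3% of all genes called), and 4 had an unadjusted p below 0.05, against 15.1% of all genes. For STAT3C 0 passed (0.0087% called), with 2 at an unadjusted p below 0.05 against 11% of all genes. For CEBPB 0 passed (0.4% called), with 5 at an unadjusted p below 0.05 against 15.5% of all genes. For Pcsk6 the change with both factors in C17.2 minus that in NSC was -3.23 (SE 0.86, adjusted p = 0.0577). It passed with the deposited values (-1.33, adjusted p = 0.011), and without C17.2 STAT3C+CEBPB replicate 1 (-3.92, adjusted p = 0.0033), STAT3C+CEBPB replicate 4 (-3.58, adjusted p = 0.0302) or CEBPB replicate 2 (-3.23, adjusted p = 0.0263). It did not pass in 6 of 7 alternatives (adjusted p up to 0.475 by limma). Nor did it in 31 of 34 fits with 1 array left out (up to 0.125). Timp4 was detected on 0 of 16 C17.2 arrays, so no change of it could be measured there and the cell types are not compared.

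With the empty vector alone, the 2 cell types differed in many members. Between C17.2 and NSC controls 22 of 43 members passed, 12 higher in C17.2 and 10 lower. This share, 51.2%, was near the background of 49.4% of all genes (24.6% higher and 24.7% lower). Cell type and slide cannot be told apart here, since no slide held both. The largest difference was in Mmp2, gelatinase A, which cuts denatured and basement membrane collagen. It had 12.72, 13.47, 12.34 and 12.93 in C17.2 controls, against 4.93, 5.26, 5.74, 7.40 and 6.92 in NSC controls. The groups were far apart, and the difference was 6.82 (SE 0.47, adjusted p = 2.95e-13).

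By role, 1 of 4 membrane-type Mmp genes was higher in C17.2, and of 4 inhibitors Timp2 and Timp3 were higher, Timp4 lower and Reck not called. Mmp14, the membrane-type enzyme that activates pro-Mmp2, had 10.86, 11.08, 11.20 and 10.88 in C17.2 controls, against 8.59, 8.59, 7.30, 6.26 and 8.19 in NSC controls, a difference of 3.22 (SE 0.57, adjusted p = 2.32e-05). Timp2 had 11.15, 11.95, 11.26 and 11.25 in C17.2 controls, against 8.34, 8.30, 8.83, 8.96 and 9.46 in NSC controls, a difference of 2.63 (SE 0.38, adjusted p = 9.83e-07). In both genes every C17.2 array lay above every NSC array. Timp3, an inhibitor bound to the matrix, averaged 10.62 ± 0.44 in C17.2 controls (SD, n = 4) and 8.02 ± 0.48 in NSC controls (SD, n = 5), a difference of 2.59 (adjusted p = 0.000718 by limma). Furin, which activates pro-Mmp14, was higher by 1.05 (adjusted p = 0.000785) with overlapping arrays, and Pcsk4 by 2.14 (adjusted p = 1.11e-06). Mmp11, which carries a furin site, was detected on all C17.2 and 0 of 5 NSC controls, and was at least 1.90-fold higher in C17.2 (adjusted p = 1.91e-05).

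**Figure D5:**
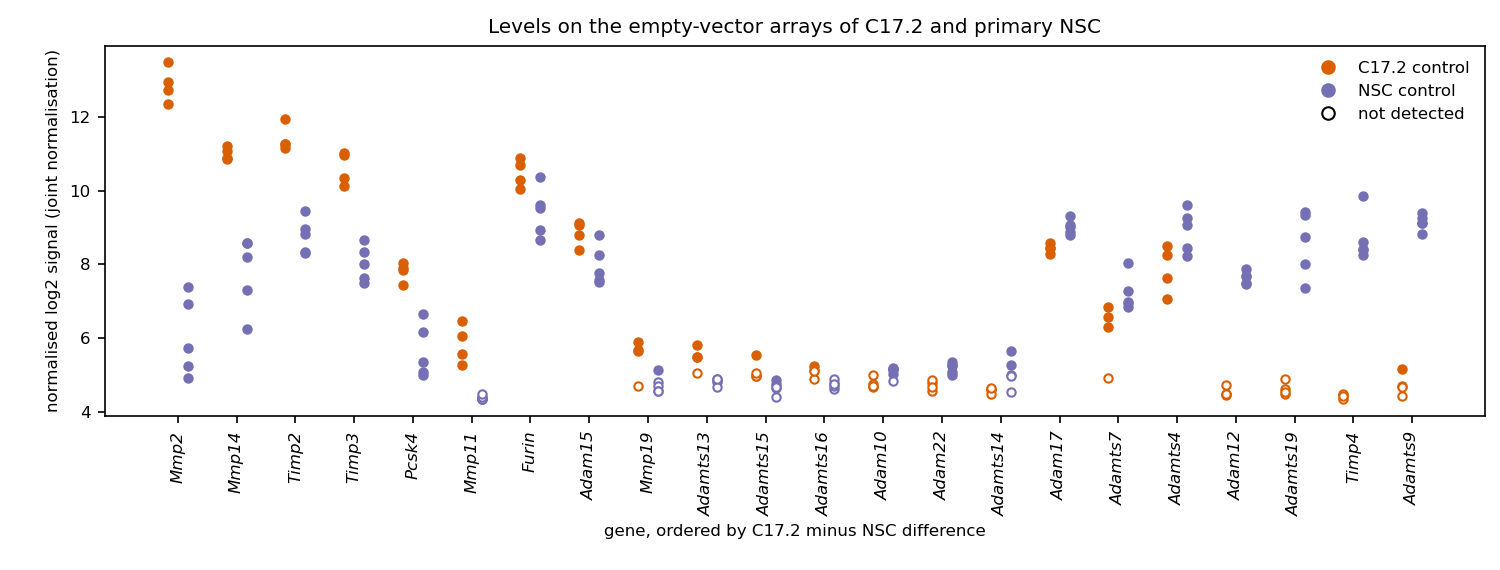
Normalised log2 signal of the 22 members that passed between C17.2 (left of each pair) and NSC (right) on the 9 empty-vector arrays, ordered by their difference. Open points mark arrays that did not detect the gene, and Mmp2 lies at 12.34 to 13.47 in C17.2 and 4.93 to 7.40 in NSC.

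Of the 10 members lower in C17.2, 9 were Adam or Adamts genes and the other was Timp4. Adam15, Adamts13, Adamts15 and Adamts16 were called higher in C17.2, and further Adam and Adamts genes, such as Adam9 and Adamts12, were not called. Adamts9, a proteinase that cuts versican and aggrecan, had 4.71, 5.18, 4.44 and 4.69 in C17.2 controls, against 9.13, 8.82, 9.12, 9.38 and 9.26 in NSC controls. On this probe, the brighter of 2, only 1 of 4 C17.2 arrays detected it, and the difference was -4.39 (SE 0.18, adjusted p = 6.41e-19). The second probe was detected on all 9 control arrays and disagreed in size, with 5.45 ± 0.21 in C17.2 (SD, n = 4) and 5.69 ± 0.37 in NSC (SD, n = 5), a difference of -0.24, so the size for Adamts9 depends on the probe. Genes entered this comparison by passing the detection filter in either cell type. Timp4, Adamts19, Adam12, Adam10, Adam22 and Adamts14 passed it in NSC alone, where they were higher. Mmp11 and Adamts15 passed it in C17.2 alone, where they were higher. The calls of these genes draw in part on the arrays that let them in. Timp4, Adamts19 and Adam12 were not detected on any C17.2 control and were detected on every NSC control. Timp4 was at least 11.9-fold lower in C17.2 (adjusted p = 2.05e-13). Adamts19 was at least 10.8-fold lower (adjusted p = 1.03e-10). Adam12, a sheddase of heparin-binding growth factors, was at least 5.69-fold lower (adjusted p = 3.32e-14). Here the bound sets each C17.2 array at its lowest detected probe or the gene's own value, whichever was higher.

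The sheddase Adam17, which releases TNF and ligands of the EGF receptor, had 8.28, 8.59, 8.45 and 8.44 in C17.2 controls, against 9.08, 9.01, 8.87, 8.81 and 9.30 in NSC controls. Its arrays did not overlap, and the difference was -0.57 (SE 0.16, adjusted p = 0.0047), where 38.2% of all genes had groups that did not overlap. The remaining calls were of lower or less even size: Mmp19, Adamts13, Adamts15 and Adam15 were higher in C17.2 by 0.47 to 0.86, and Adamts7 and Adamts4 were each lower with a difference of -1.06. Adamts16 was called higher in C17.2 but was detected on only 1 of 4 C17.2 and 0 of 5 NSC controls, so no bound is given. Its second probe that passed the filter went the other way (-0.28). The mean of its detected probes differed by 0.03 (adjusted p = 0.89 by limma). Adam22, Adamts14 and Adam10 were lower but not detected on any C17.2 control, which leaves a bound of at least 1.04-fold for Adam22 and no bound above 1 for the others. Adam10 stood at the threshold, and Adamts4, Adamts7, Adamts14, Adamts15 and Adamts16 each lost the call under at least 1 alternative, as did Adam10, Adam15, Adam22 and Furin. Pcsk6 did not differ beyond its spread, with 0.51 (SE 0.53, adjusted p = 0.442).

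Genes that work with these proteinases were taken from 5 lists: regulators of ADAM maturation, lecticans and other matrix substrates, the plasmin and astacin system, shed ligands and shed receptors. In NSC with both factors against CEBPB, 9 of 41 tested genes passed, 8 higher and 1 lower, where 6.47% of all genes passed (3.22% higher and 3.24% lower). The higher ones were the ADAM regulators Tspan17 (0.72, adjusted p = 0.0365) and Rhbdf1 (0.54, adjusted p = 0.0185), the matrix protein Tnc (1.15, adjusted p = 0.013), the shed ligands Nrg1 (0.88, adjusted p = 0.00312) and Cx3cl1 (0.64, adjusted p = 0.0337), and the shed proteins Cdh2 (1.02, adjusted p = 0.00946), Aplp2 (0.74, adjusted p = 0.00599) and App (0.46, adjusted p = 0.0384). The Notch ligand Dll1 was lower (-0.44, adjusted p = 0.0136). Against control in NSC with both factors, Tspan17 alone of the 41 passed (1.44, SE 0.25, adjusted p = 0.00549 by limma), where 2.84% of all genes passed. Against STAT3C no listed gene passed, where 0.341% of all genes did. In C17.2 the procollagen C-proteinase enhancer Pcolce2 was the only listed gene called against control. It passed with both factors (2.51, SE 0.40, adjusted p = 0.0103), where 0.577% of all genes passed. With CEBPB it also passed (2.08, SE 0.40, adjusted p = 0.0243), where 1.62% of all genes did. The alternatives were not run for the listed genes.

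Of 9 lecticans and other matrix genes tested between the controls, 4 were higher in C17.2 and 3 lower, where 49.4% of all genes passed. Bcan (brevican), a substrate of Adamts4, was lower in C17.2 than in NSC controls (C17.2 minus NSC -5.31, SE 0.26, adjusted p = 9.88e-17) and so was Ncan (neurocan) (-4.90, SE 0.17, adjusted p = 6.35e-21). Fn1 (fibronectin), a substrate of several Mmp proteins, was higher in C17.2 by 3.77 (SE 0.33, adjusted p = 8.8e-11).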

How the data were processed

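The 34 deposited array files hold an intensity for each of 45281 probes, the average over its beads per the file headers, already background subtracted and partly below 0. Beside it the deposited files give a detection p-value. The authors' deposited series matrix holds normalised values read here as log2, used as an alternative only. BeadStudio and lumi are named in the submitters' processing notes, without versions. The background and normalisation steps behind these values are not given in the sources used here. A total of 34885 probes had 1 symbol in the platform annotation, updated through RefSeq (GRCm38.p6).

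Signals of each cell type went through neqc (limma 3.58.1, R 4.3.3, offset 16): background correction by way of the detection p-values, quantile normalisation, then log2. The comparison of cell types normalised all arrays together. Genes are represented by the detected probe of highest mean. Fits used lmFit and eBayes over the 4 groups of a cell type, two-sided, with adjustment over all genes tested and calls at an adjusted p below 0.05. Changes are log2 differences. NSC fits held slide as a fixed term. Replicate numbers follow the order of the samples in the series and pair nothing.

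Named members are those called in any test, the 6 per cell type with the smallest p over the 4 groups and the 2 with the smallest unadjusted p in each comparison with control, with others given by count or where a result turns on them. Pcsk6 and Adam23 in C17.2, Mmp2, Mmp14 and Adamts12 in NSC, and Sox10 beside Mmp17 were chosen after their values were seen. The members and lists were chosen with earlier results of these data known. The fits were tested on simulated data. Alternatives were the deposited values, no further background correction, no detection filter, the mean of detected probes, array weights, the slide and chromosome 10 terms, leaving out arrays and, chosen after seeing the data, a term for the 4 NSC arrays lacking Xist. Of array pairs, 0 held identical values.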

Additional observations from a re-analysis of the deposited data

Results flagged for a closer look

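Dixon's test compared the highest or lowest array of each group of 4 or 5 with the others, for the members named in the report and for the control groups of those that differed between cell types. It marked 11 of 90 groups, where chance marks about 1 in 20.

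In NSC, 5 of the marks fell on replicate 4 of a group, the arrays without Xist. Timp4 was high there: 8.98 with both factors against at most 7.64 on the other arrays of the group, 9.05 with CEBPB against at most 8.87, and 9.86 in control against at most 8.68. Pcsk6 lay at 8.24 on CEBPB replicate 4 against at most 6.79 on the others. Mmp16 lay at 5.18 on STAT3C replicate 4 against at least 6.15.

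In C17.2, Mmp17 lay at 7.60 on CEBPB replicate 3 against at most 4.76, and at 6.14 on control replicate 3 against at least 10.03. Adamts12 lay at 9.02 on STAT3C replicate 1 against at most 7.72, and Mmp28 at 5.18 on STAT3C replicate 4 against at most 4.86. In the joint normalisation, control replicate 2 was the highest for Timp2 at 11.95 against at most 11.26, and for Adam12 at 4.73 against at most 4.50, where no C17.2 control detected it.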

How the results depend on the processing

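The rise of Pcsk6 with both factors against control in NSC passed in each alternative. Between control cell types 22 members were called (17 to 27 in alternatives, 18 to 23 with an array left out). Counts that moved by over 1.5 times follow. With array weights the counts were 7 for C17.2 CEBPB against control (2491 genes in all, against 157 as reported) and, in NSC, 1 for STAT3C against control (117 genes against 0), 2 for both against control, 16 for both against CEBPB (4231 genes against 702) and 10 for non-additivity (2423 genes against 4). With the deposited values 1 member, Pcsk6, passed for NSC CEBPB against control (0.45) and 1 for the difference between cell types with both factors. The mean of detected probes gave 2 for NSC both against control. With slide as a block, C17.2 both against STAT3C gave 0. Without the slide term NSC both against STAT3C gave 0 (13 genes against 37) and both against CEBPB 2 (101 genes against 702).

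Without the 4 NSC arrays lacking Xist the counts were 1 for STAT3C against control, 2 for both against control, 0 for both against STAT3C, 8 for both against CEBPB (1925 genes), 6 for non-additivity (697 genes) and 1 for the difference between cell types with both factors (Timp4, which no C17.2 array detected). In these fits both against control and both against STAT3C turn on 1 control and 1 STAT3C+CEBPB array of slide 6. An alternative chosen after seeing the data gave these 4 arrays a term beside slide. It called 3 for both against control (Mmp17, Pcsk6 and Timp4; 899 genes against 308), 6 for both against CEBPB (1472 genes against 702), 1 for both against STAT3C (225 genes against 37) 0 for CEBPB against control (41 genes against 3) and 0 for non-additivity (189 genes against 4). With each array left out in turn the counts ran from 0 to 4 for C17.2 CEBPB against control, 0 to 1 for C17.2 both against control and against STAT3C, 1 to 3 for NSC both against control, 0 to 2 for NSC both against STAT3C, 3 to 6 for NSC both against CEBPB, 0 to 3 for NSC non-additivity, and 0 to 1 (CEBPB) and 0 to 2 (both) for the differences between cell types. CEBPB replicate 3 of C17.2 gave the 4, with Adamts12, Mmp10, Mmp17 and Timp3 called without it. Leaving out STAT3C replicate 4 or C17.2 STAT3C replicate 2 gave the counts of 0 against STAT3C.

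A change turned sign or vanished for Mmp10 with CEBPB in C17.2 (-0.08 with the chromosome 10 covariate) and Pcsk6 with CEBPB in NSC (0.00 without the 4 arrays). That covariate did not overlap between CEBPB and control arrays, so it can take up the vector difference itself. The causes were not tested. Levels near background, such as those of Adamts14 and Mmp28, limit what a change can show. No paired analysis was possible because the labels give no replicate numbers to pair arrays by. The data themselves show a matched set, the 4 NSC arrays lacking Xist, replicate 4 of each group on slide 6. On the second principal component of the NSC arrays, replicate 5 of control and of STAT3C+CEBPB, also on slide 6, lay at 35.5 and 36.5. The other NSC arrays lay at 9.91 or below. The replicate 5 arrays are the pair left on slide 6 without the 4. Whether they are matched was not tested. The main NSC fit held no term for the arrays lacking Xist or for this pair. The alternative with such a term held it for the arrays lacking Xist. With both factors against control that alternative called 899 genes against 308. Timp4 was among its calls (-1.25, SE 0.20, adjusted p = 0.001 by limma) and was not called in the main fit.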
